A study of Homo sapiens with 9 samples.

Results

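PDE1C and 9 further genes of cyclic nucleotide phosphodiesterases were compared between separate TCam-2 cultures with and without activation of ESX1, an X-linked homeobox gene. TCam-2 is a human testicular seminoma line. The members were PDE1C, PDE3A, PDE3B, PDE4A, PDE4B, PDE4C, PDE4D, PDE7A, PDE8A and PDE10A, found by symbol as 10 of the 63856 genes in the deposited tables. They were put together with the contrasts of these libraries already known. PDE1C was picked because it differed between the ESX1-activated cells and both controls, so the members' values below are a description and carry no test.

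RNA-seq was made from 3 groups of 3 cultures, all of the TCam-2 line. WT cells were unmodified. NC cells received a doxycycline-inducible dCas9-VPR activator together with a vector that carries GFP and gRNAs without a human target, under antibiotic selection and doxycycline. ESX1 cells received the same activator and vector with gRNAs against the region upstream of ESX1, under the same selection. By staining, the study saw ESX1 protein at strong or weak signal in nuclei of the ESX1 cells and none in the controls. It describes no isolation of clones, and GFP was seen in only some cells of both transfected groups after selection. NC and ESX1 may therefore be mixed populations of modified and unmodified cells. In such bulk RNA, fewer cells that express a gene and less RNA per cell cannot be told apart. The samples of a group are biological replicates by the study's methods.

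Total counts per library ran from 5212804, in ESX1 replicate 3, to 10644408, and the share of counts from mitochondrial genes ran from 14.45% to 19.87%. Levels below are normalized CPM, that is CPM (counts divided by the library's total and put on a common scale) with library sizes adjusted by TMM, and 1 count was worth 0.101 to 0.185 normalized CPM. ESX1 itself, the check of the labels, stood at 3.60, 4.08 and 3.13 normalized CPM in WT, at 3.63, 2.89 and 3.46 in NC and at 57.0, 55.7 and 31.4 in ESX1 cells. All 8 seminoma markers had counts in every library. Their summed level was 3190 to 3860 normalized CPM in WT, 2430 to 2660 in NC and 1440 to 1790 in ESX1 cells. The sum thus fell in the order WT, NC, ESX1, and its part in the results below was not tested. SOX17 did not follow the sum and had its lowest mean in WT, 227 normalized CPM, against 245 in ESX1 cells. The means of all other seminoma markers fell in the order of the sum. The summed level of 7 markers of other testis cells was 11.4 to 15.6, 14.0 to 19.3 and 11.9 to 30.5 normalized CPM in the same groups. INSL3, a Leydig cell hormone, had 0 counts in all libraries, and PTPRC, a leukocyte marker, had at most 1 count. Other markers of this list were present at low levels. AMH, a Sertoli cell marker, ranged from 5.68 to 18.1 normalized CPM, and SOX9, of the same cells, reached 5.78. The peritubular myoid markers MYH11 and ACTA2 reached 6.0 and 2.22, and the Leydig cell marker CYP17A1 reached 0.554.

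Cyclic nucleotide phosphodiesterases break down the second messengers cAMP and cGMP, which adenylyl and guanylyl cyclases make, and so limit how strongly and where in the cell protein kinase A and other effectors are switched on. PDE1C belongs to the calcium- and calmodulin-activated enzymes and hydrolyses both nucleotides. PDE3A and PDE3B break down cAMP and are inhibited by cGMP, the PDE4 enzymes are specific to cAMP and are the targets of rolipram, PDE7A and PDE8A are high-affinity cAMP enzymes, and PDE10A hydrolyses both. In germ cells cAMP is known for its part in meiotic arrest of oocytes and in sperm motility and capacitation.

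PDE1C was the member with the clearest difference between ESX1 cells and both controls. Its libraries held 17, 4 and 9 counts in WT, 14, 17 and 16 in NC and 52, 60 and 34 in ESX1 cells, which is 1.86, 0.583 and 0.940 normalized CPM in WT, 1.45, 1.82 and 1.63 in NC and 5.27, 6.04 and 6.28 in ESX1 cells. All ESX1 libraries lay above all control libraries, and WT and NC overlapped. The log2 fold change was 1.83 ± 0.37 (SE, n = 3 per group) against NC, or 3.56-fold, and 2.33 ± 0.39 against WT, or 5.01-fold. Between NC and WT it was 0.50 ± 0.42. The comparisons against NC and against WT use the same ESX1 libraries and are not independent of each other.

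The PDE1C values rest on few counts, 146 in all for ESX1, 47 for NC and 30 for WT. A gene was called at an adjusted p below 0.05 over all 18452 tested genes and at least a 2-fold change. On the authors' log2 values, which compress low counts, the PDE1C difference against NC was 0.97, under that fold, and was not called. Without WT replicate 1, the WT library with the most PDE1C counts, the difference against WT was 2.87.

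PDE1C lies on the minus strand of chr7:31751179-32299329 (GRCh38), a span of 548.2 kb with 13821 exon bases, none of which another annotated gene shares. RefSeq (GRCh38.p14) lists 6 start sites for it over 357.8 kb, against a median of 1 per gene, and the gene-level counts do not tell from which of them the transcripts came. The 250 bases upstream of the 3 most upstream starts are given, since they are the candidate promoters of the member that differed most. The most distant start lies 128.9 kb upstream of the gene as the counting annotation has it, so reads from its first exon would not have been counted as PDE1C. The next lies at the annotated start and the last one shown 227.9 kb inside the gene, upstream of 3 further starts. All are on the minus strand and written 5′ to 3′ up to the base before the start. Capitals mark a GC box (GGGCGG or its reverse complement).
PDE1C distal start, chr7:32428225-32428474: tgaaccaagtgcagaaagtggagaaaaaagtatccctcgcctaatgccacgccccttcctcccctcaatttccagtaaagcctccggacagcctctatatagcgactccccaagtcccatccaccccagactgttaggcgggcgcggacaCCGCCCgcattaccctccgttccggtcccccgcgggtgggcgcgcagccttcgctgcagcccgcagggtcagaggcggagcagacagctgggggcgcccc
PDE1C annotated start, chr7:32299329-32299578: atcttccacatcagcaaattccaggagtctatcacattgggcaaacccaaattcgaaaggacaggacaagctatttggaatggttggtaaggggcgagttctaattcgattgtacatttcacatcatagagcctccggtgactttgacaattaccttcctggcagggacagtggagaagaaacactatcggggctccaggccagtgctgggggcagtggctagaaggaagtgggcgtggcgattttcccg
PDE1C internal start, chr7:32071437-32071686: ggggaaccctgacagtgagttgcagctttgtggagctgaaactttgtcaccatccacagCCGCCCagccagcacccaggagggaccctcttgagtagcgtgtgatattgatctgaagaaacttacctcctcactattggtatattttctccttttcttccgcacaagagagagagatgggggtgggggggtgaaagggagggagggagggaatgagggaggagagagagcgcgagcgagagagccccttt

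These 3 windows differed in base composition, with 64.0%, 50% and 54.8% G or C, and the 3 further internal windows of PDE1C held 68.0% to 74.4%. None of the 6 PDE1C windows held the cAMP response element (TGACGTCA), its short core (TGACG on either strand), the homeodomain core TAATTA or the TATA box TATAAA, read on both strands. Across the 35116 windows of all genes, 1.65%, 21.2%, 4.35% and 10.7% held these motifs in that order, and 42.6% held a GC box. The short core is contained in the full element, so each full match is also a match of the core. A GC box stood in 3 of the 6 PDE1C windows.

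Several members had many starts. Windows were listed for 8 of the 10 members, and PDE1C, PDE4A, PDE4B and PDE4D had at least 5 each, as do 0.905% of all genes with a window. Over the 35 members' windows, the short core of the cAMP response element stood in 3 (8.57%), TAATTA in 3 (8.57%), TATAAA in 1 (2.86%), a GC box in 14 (40.0%) and the full response element in 0. PDE4A is shown for contrast, because its outermost window held the short core 5 times, in capitals, with 74.0% G or C. It is on the plus strand.
PDE4A annotated start, chr19:10416523-10416772: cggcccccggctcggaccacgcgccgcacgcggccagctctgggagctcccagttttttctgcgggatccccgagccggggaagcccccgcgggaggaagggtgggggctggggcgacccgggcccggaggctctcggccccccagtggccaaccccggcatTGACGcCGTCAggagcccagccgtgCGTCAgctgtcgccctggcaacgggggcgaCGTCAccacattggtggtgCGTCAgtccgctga
A match of letters is a description of the window and no evidence that a factor binds there.

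**Figure D1:**
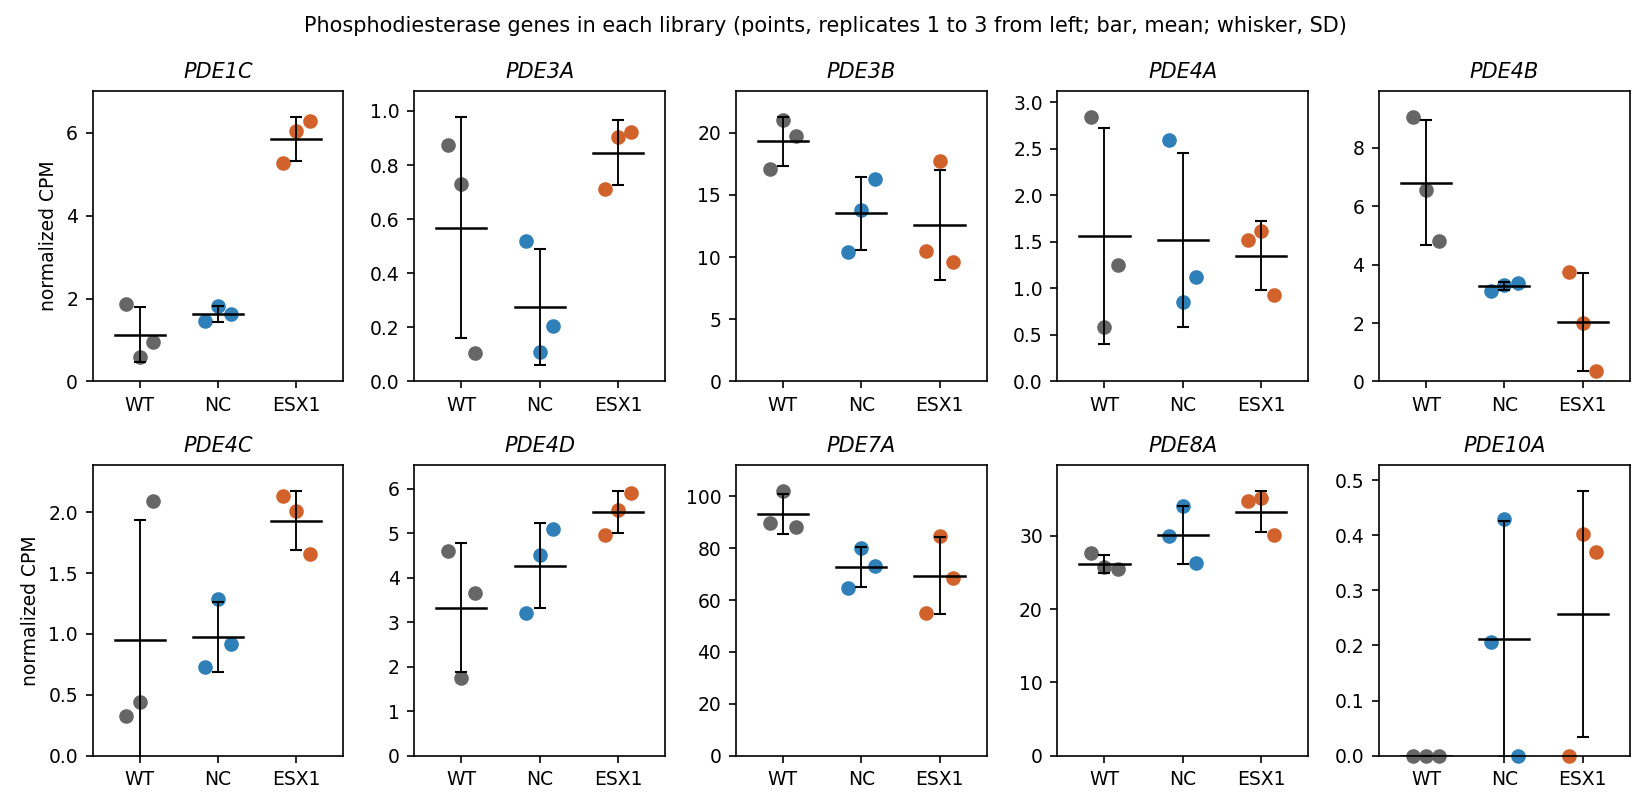
Normalized CPM (y axis, from 0, with its own range for each gene) of the 10 phosphodiesterase genes in WT, NC and ESX1 libraries (x axis). Points are libraries, horizontal bars the mean of 3 and whiskers the SD, cut at 0 where it reaches below. The ESX1 points of PDE1C, from 5.27 to 6.28, lie apart from all control points, while PDE4B and PDE7A are highest in WT.

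The cGMP-inhibited enzymes showed no shared direction. PDE3B, the form best known from fat and liver cells, held 17.1, 21 and 19.7 normalized CPM in WT, 10.4, 13.8 and 16.3 in NC and 10.5, 17.7 and 9.61 in ESX1 cells. All NC libraries were below all WT libraries, and ESX1 cells overlapped both controls. Its log2 fold change was -0.08 ± 0.23 against NC, -0.59 ± 0.23 against WT and -0.51 ± 0.23 between NC and WT. PDE3A, the form of heart, platelets and oocytes, had 8, 5 and 1 counts in WT, 5, 1 and 2 in NC and 7, 9 and 5 in ESX1 cells, too few to be tested. In normalized CPM these are 0.710 to 0.924 in ESX1 cells and 0.107 to 0.518 in NC, which do not overlap, with 21 counts against 8 in all. WT ranged from 0.104 to 0.873 normalized CPM and overlapped both. Of the PDE3A exon bases, 4.81% are shared with an antisense gene, and the counting used no strand.

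Among the cAMP-specific PDE4 genes, PDE4B was lower in ESX1 cells than in WT. PDE4B, which is known for its part in inflammatory signalling, held 9.06, 6.56 and 4.81 normalized CPM in WT, 3.11, 3.32 and 3.36 in NC and 3.75, 2.01 and 0.369 in ESX1 cells. WT lay above both other groups, while ESX1 cells spread on either side of the narrow NC values. The log2 fold change was -1.62 ± 0.43 against WT, -0.56 ± 0.45 against NC and -1.06 ± 0.41 between NC and WT, and it was called only in the comparison of ESX1 with WT. Whether the ESX1 and NC differences from WT differ from each other is the comparison of ESX1 with NC, which was not called. ESX1 replicate 3, the library with the lowest total, held only 2 PDE4B counts. The value against WT was -1.21 without that library and -2.33 without ESX1 replicate 1, and that against NC -0.17 and -1.27.

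PDE4D, the longest of the members with a span of 1553.1 kb, held 4.59, 1.75 and 3.66 normalized CPM in WT, 3.21, 4.5 and 5.09 in NC and 4.97, 5.53 and 5.91 in ESX1 cells. ESX1 cells were above all WT libraries and overlapped NC. The log2 fold change of PDE4D was 0.68 ± 0.33 against WT and 0.35 ± 0.32 against NC, which was not called in either. PDE4C, the least studied PDE4 gene, had 3, 3 and 20 counts in WT, 7, 12 and 9 in NC and 21, 20 and 9 in ESX1 cells. In normalized CPM its ESX1 libraries (2.13, 2.01 and 1.66) were above all NC libraries (0.726, 1.29 and 0.916), and WT replicate 3 (2.09) stood apart from the other WT libraries (0.328 and 0.437). The PDE4C log2 fold change was 0.99 ± 0.59 against NC and 0.98 ± 0.60 against WT, neither called, and without WT replicate 3 the latter was 2.32. A plus-strand gene shares 7.91% of the PDE4C exon bases. PDE4A, a widely expressed PDE4 form, showed no order of the groups, with 0.583 to 2.84 normalized CPM in WT, 0.858 to 2.59 in NC and 0.924 to 1.61 in ESX1 cells. Its log2 fold changes lay between -0.20 and -0.06 with SEs of 0.56 to 0.58, and the value against WT turned to 0.54 without WT replicate 1 and that against NC to 0.48 without NC replicate 1.

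The high-affinity cAMP enzymes had high levels and differed by less than 2-fold between the groups. PDE7A, known from T cells and many tissues, held 89.9, 102 and 88.0 normalized CPM in WT, 64.6, 80.2 and 73.3 in NC and 55.0, 84.6 and 68.5 in ESX1 cells. Both transfected groups lay below WT and overlapped each other. The PDE7A log2 fold change was -0.43 ± 0.14 against WT, -0.07 ± 0.14 against NC and -0.36 ± 0.14 between NC and WT. PDE8A, an enzyme that IBMX does not inhibit and that is known from Leydig cells, went the other way, with 27.6, 25.7 and 25.4 normalized CPM in WT, 29.9, 34.1 and 26.3 in NC and 34.7, 35.1 and 30.1 in ESX1 cells. ESX1 cells were above WT and overlapped NC. Its log2 fold change was 0.35 ± 0.15 against WT and 0.15 ± 0.15 against NC. PDE7A shares 1.56% of its exon bases with the plus-strand gene MTFR1, and PDE8A shares none.

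PDE10A, a dual-specificity enzyme best known from the striatum, was close to absent in all groups. It had 0 counts in all WT libraries, 2, 4 and 0 in NC and 0, 4 and 2 in ESX1 cells. The 0 in WT allows a level of up to 0.117 normalized CPM over the group, counting error only, and 6 counts in each transfected group correspond to 0.208 and 0.238. PDE10A had too few counts to be tested, and no fold is given.

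Of the 10 members, 8 had enough counts to be tested. Against NC, 1 of the 8 (PDE1C) was called higher, where 1.08% of all tested genes were, and 0 lower, where 0.699% were. Against WT, 1 (PDE1C) was called higher and 1 (PDE4B) lower, with 6.78% and 4.77% of all tested genes. Between NC and WT 0 members were called, with 3.12% of all tested genes higher and 2.15% lower. The rule that chose the members used these contrasts, so nothing is read from these counts. The median log2 fold change of the 8 members was 0.04 against NC, 0.07 against WT and -0.03 between NC and WT, and that of all tested genes was 0.00, 0.01 and 0.01.

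Complete separation of groups was frequent at this sample size. ESX1 libraries lay entirely above NC for 10.7% and entirely below for 11.8% of all tested genes, and 2 of the 8 tested members (PDE1C and PDE4C) were above and 0 below. Against WT the shares were 18.9% and 21.3%, and 3 members (PDE1C, PDE4D and PDE8A) were above and 2 (PDE4B and PDE7A) below. Between NC and WT they were 17.6% and 20%, with 0 members above and 3 (PDE3B, PDE4B and PDE7A) below.

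**Figure D2:**
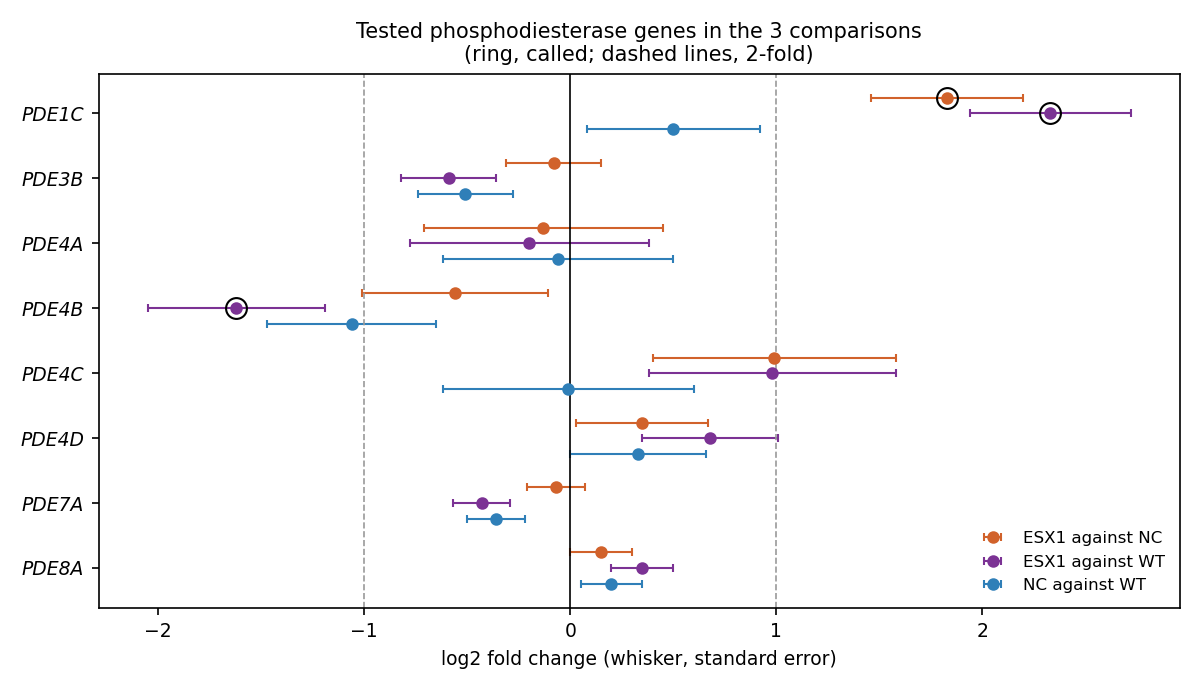
Log2 fold change (x axis) of the 8 tested phosphodiesterase genes (y axis) in the 3 comparisons, with whiskers of 1 SE. Rings mark genes called and dashed lines a 2-fold change. PDE1C at 1.83 and 2.33 and PDE4B at -1.62 carry rings, and the other members lie within the dashed lines apart from PDE4B in NC against WT at -1.06.

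Levels were also compared per length, as normalized CPM per kb of exon, over all annotated exon bases of a gene. Which of these bases the transcripts in these cells hold is not known, so orders and shares between genes are approximate. The order of the members was led in every group by PDE7A, PDE8A and PDE3B. In WT they stood at 12.6 ± 1.03, 3.32 ± 0.155 and 1.65 ± 0.168 (SD, n = 3), and the libraries of each did not overlap those of its neighbours in any group. PDE4B followed at 0.788 ± 0.247 in WT. PDE4A, PDE4D, PDE4C, PDE1C and PDE3A, from 0.234 down to 0.0677, overlapped their neighbours in that order, and PDE10A was last.

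PDE1C changed its place in this order. Its level per kb was 0.0815 ± 0.0475 in WT, rank 8 of 10, and 0.118 ± 0.0134 in NC, rank 7, and in both groups its libraries overlapped those of PDE4C. In ESX1 cells it was 0.424 ± 0.038, rank 4, above all libraries of PDE4D at 0.335 ± 0.0291 but not apart from PDE4B. PDE4B stood at rank 4 in WT and NC and at rank 6 in ESX1 cells, where its wide range of 0.0427 to 0.434 overlapped PDE1C (0.381 to 0.454), PDE4D, PDE4C and PDE4A.

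The 21 catalytic phosphodiesterase genes together summed to 29.5 ± 1.27 normalized CPM per kb in WT, 25.1 ± 1.92 in NC and 24.4 ± 3.06 in ESX1 cells. The 10 members made up 64.5%, 63.4% and 66.4% of these sums. PDE7A alone made up 42.6% ± 2.98 in WT, 39.0% ± 1.25 in NC and 38.1% ± 3.49 in ESX1 cells. The share of PDE8A was 11.3% ± 1.03, 15.2% ± 1.71 and 17.5% ± 2.51, and that of PDE1C was 0.281% ± 0.176, 0.471% ± 0.0175 and 1.75% ± 0.162 in the same order. PDE1C thus remained a small part of the phosphodiesterase RNA in ESX1 cells, between 1.58% and 1.90% in each library.

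The other PDE1 genes were scarce. PDE1A had 1, 9 and 14 counts in all in WT, NC and ESX1 cells and PDE1B had 13, 23 and 7, too few to be tested, so PDE1C carried most of the PDE1 RNA in ESX1 cells, 1.75% of 2.24% of the family sum. Of the 11 catalytic genes outside the members, 6 were tested and 1, PDE2A, was called. It was called only against WT, where 11.5% of all tested genes were. Against NC and between NC and WT 0 of the 6 were called, beside 1.78% and 5.27% of all tested genes. PDE2A, a dual enzyme stimulated by cGMP, fell by 1.56 on the log2 scale from WT to ESX1 cells (edgeR quasi-likelihood test, adjusted p = 2.93e-05), with means of 20.9, 11.9 and 6.95 normalized CPM in WT, NC and ESX1 cells. Its log2 fold change was -0.75 against NC (edgeR, adjusted p = 0.0531) and -0.81 between NC and WT (edgeR, adjusted p = 0.00863), below 2-fold in both, and each group lay apart from the others. PDE5A, PDE6B, PDE6C, PDE8B and PDE9A were called in 0 comparisons, with log2 fold changes from -0.35 to 0.49. PDE6A, PDE7B and PDE11A had too few counts. Of the accessory subunits, PDE6D, a carrier of prenylated proteins, was tested and had -0.61 between NC and WT (edgeR, adjusted p = 0.044), while PDE6G and PDE6H had too few counts.

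Lists of the wider cyclic nucleotide pathway held 101 genes besides the members. They covered the other phosphodiesterases and accessory subunits above, cyclases, G protein alpha subunits, protein kinase A, other effectors and anchors. CREB factors, cAMP-responsive genes, calmodulin and calcineurin were also included. Of the 101 genes, 74 were tested. Against NC, 3 of them were called (4.05%), 2 higher and 1 lower, where 1.78% of all tested genes were called. Against WT, 15 were called (20.3%), 8 higher and 7 lower, where 11.5% of all tested genes were. Between NC and WT 9 were called (12.2%), 7 higher and 2 lower, where 5.27% of all tested genes were. Their median log2 fold change was 0.00 against NC, -0.04 against WT and 0.02 between NC and WT, close to that of all tested genes.

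Among the cyclases that make the nucleotides, 3 of 8 tested adenylyl cyclases rose against WT and 1 against NC, where 6.78% and 1.08% of all tested genes were called higher. ADCY10, the soluble, bicarbonate-stimulated cyclase of sperm, stood at means of 5.42, 18.6 and 38.3 normalized CPM in WT, NC and ESX1 cells. It rose by 1.04 on the log2 scale against NC (edgeR, adjusted p = 0.00475), by 2.81 against WT (edgeR, adjusted p = 1.64e-07) and by 1.77 from WT to NC. The ADCY10 rise against NC was near the 2-fold limit and was not called without NC replicate 1 (0.98) or without ESX1 replicate 2 (0.84). ADCY5 and ADCY7, membrane cyclases, were higher than in WT in both transfected groups, by 4.20 and 1.83 in ESX1 cells and by 2.75 and 1.37 in NC, and were not called between ESX1 and NC. WT held only 7, 1 and 1 ADCY5 counts, the lowest of them under the 3 counts taken as resolved. The size of the ADCY5 rise is therefore poorly measured. The ADCY5 values were 5.60 and 4.17 without WT replicate 1. On the authors' log2 values (limma) they were 1.8 and 0.97, and the rise in NC was then not called. NPR2, the guanylyl cyclase receptor of C-type natriuretic peptide, rose by 2.05 against NC (edgeR, adjusted p = 0.00119), by 4.19 against WT and by 2.14 from WT to NC. NPR2 and PRKAR2B were among the genes the study selected on these libraries, so their direction is not independent evidence.

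Among the G proteins and kinase subunits, the called genes fell. GNAL, a stimulatory alpha subunit known from olfaction, fell by 1.43 against WT (edgeR, adjusted p = 7.03e-07) and was 0.71 lower against NC, under the fold limit. GNAL was also 0.71 lower in NC than in WT (edgeR, adjusted p = 0.00105), under the same limit. PRKAR2B, a regulatory subunit of protein kinase A, had means of 586, 400 and 185 normalized CPM in WT, NC and ESX1 cells. It fell by 1.11 against NC (edgeR, adjusted p = 0.000302) and by 1.66 against WT, and the value against NC was -0.99, not called, without NC replicate 2. Between NC and WT, PRKAR2B was -0.55 (edgeR, adjusted p = 0.0164), not called. The other 8 tested genes of protein kinase A and its inhibitors were not called.

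Among the other effectors and anchors, POPDC2, a cAMP-binding membrane protein, rose against WT in ESX1 cells (2.14, edgeR, adjusted p = 0.038) and in NC (2.43, edgeR, adjusted p = 0.027). The ESX1 call of POPDC2 was lost in 8 of 17 alternatives, among them leaving out WT replicate 2 or 3, NC replicate 1 or 3, or ESX1 replicate 1 or 3, and the NC call without WT replicate 2 or 3 or NC replicate 1 or 3. POPDC2 stood at 3.00 in ESX1 cells and 3.29 in NC without WT replicate 1, and at 1.5 and 1.79 without WT replicate 3. POPDC3, of the same family, fell by 1.22 against WT (edgeR, adjusted p = 0.0229) and lost that call in 6 of 17 alternatives, among them without WT replicate 2 or 3 or ESX1 replicate 2 or 3 (-1.20 to -1.07). AKAP12, an anchor of protein kinase A, fell by 1.01 against WT and was under 2-fold in 11 of 18 alternatives. Among these were the fits without WT replicate 3 (-0.77), NC replicate 1 (-1.0) or 3 (-0.99) or ESX1 replicate 3 (-0.89). Between NC and WT, POPDC3 was -0.93 and AKAP12 -0.84, not called. Against NC, POPDC2, POPDC3 and AKAP12 were -0.29, -0.29 and -0.18, not called.

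Genes that cAMP and CREB are known to switch on did not move one way. Of 12 tested factors and responsive genes, 0 were called against NC, 5 against WT and 4 between NC and WT, beside 1.78%, 11.5% and 5.27% of all tested genes. PPARGC1A, a coactivator of mitochondrial genes, rose by 2.89 in ESX1 cells against WT (edgeR, adjusted p = 5.35e-07) and by 2.29 in NC. CRTC3, a CREB coactivator, rose by 1.12 and 1.13 and PER1, a clock gene, by 1.30 in ESX1 cells. FOS fell by 1.84 in ESX1 cells and by 1.87 in NC, and NR4A1 fell by 1.08 and 1.23. The FOS fall rests on 2 of the 3 WT libraries, which held 95.2 and 82.7 normalized CPM of FOS. WT replicate 1 held 18.9, near NC (17.4 to 18.5) and within ESX1 cells (10.7 to 22.5). The NR4A1 fall rests on the same WT libraries, which held 29.3 and 35.5 normalized CPM of NR4A1. WT replicate 1 held 12.1 of it, near NC (10.4 to 11.8) and within ESX1 cells (9.05 to 15.0). CRTC3 and NR4A1 lost their calls in both comparisons without WT replicate 3 (0.99 and 1.0 for CRTC3, -0.76 and -0.91 for NR4A1), and NR4A1 in ESX1 cells also without WT replicate 2 (-0.98) or ESX1 replicate 2 (-0.90). Both comparisons share the WT libraries, and between ESX1 and NC the 5 genes differed by -0.01 to 0.61 with adjusted p-values (edgeR) of 0.151 or more.

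Calmodulin activates PDE1C, and 0 of the 7 tested calmodulin and calcineurin genes were called in any comparison. Of all tested genes, 1.78% were called against NC, 11.5% against WT and 5.27% between NC and WT. With no minimum fold, 1, 4 and 2 of the 7 had an adjusted p (edgeR) below 0.05 in that order. The shares of all tested genes were then 4.25%, 28.8% and 17.1%. The smallest adjusted p against NC was that of CALM3, 0.0153 (edgeR), at a log2 fold change of -0.56, and CALM3 was -0.79 against WT (edgeR, adjusted p = 0.000204). CALM2, named after its values were seen, was -0.89 against WT (edgeR, adjusted p = 0.000235) and -0.79 between NC and WT (edgeR, adjusted p = 0.00142). Both genes went in the opposite direction to PDE1C against WT, at changes under 2-fold. Not all of the list did so, since PPP3CC was 0.53 and PPP3R1 0.31 against WT, neither called.

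**Figure D3:**
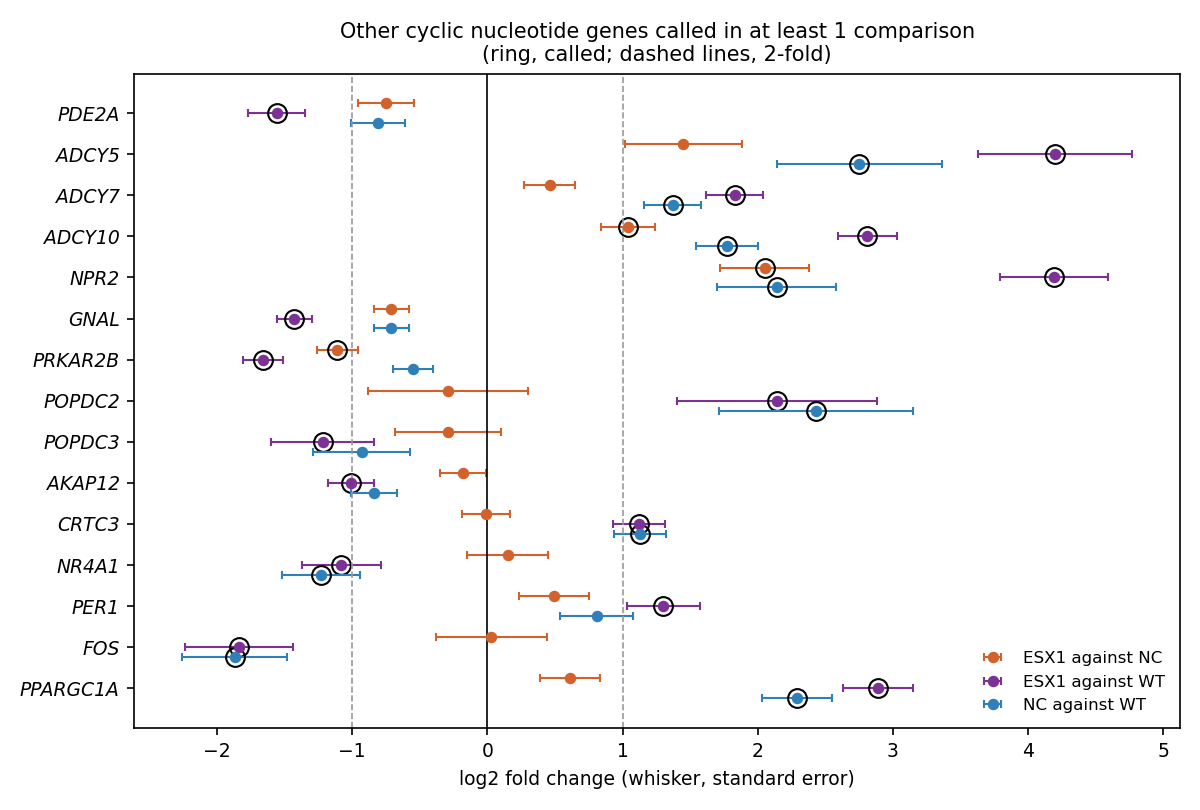
Log2 fold change (x axis) of the 15 listed cyclic nucleotide genes called in at least 1 comparison (y axis), with whiskers of 1 SE, rings on calls and dashed lines at 2-fold. The points of ESX1 against NC lie within the dashed lines except for ADCY5, ADCY10, NPR2 and PRKAR2B, and ADCY5 at 1.45 carries no ring.

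Around PDE1C, 18 annotated genes lie within 500 kb and 6 of them were tested. Against NC 0 were called, where 1.78% of all tested genes were, so nothing is read from this count. The shares of all tested genes were 11.5% against WT and 5.27% between NC and WT. LSM5, an RNA-binding subunit encoded 186.0 kb upstream of PDE1C, was -0.77 against WT (edgeR, adjusted p = 0.000769). It was -0.65 between NC and WT (edgeR, adjusted p = 0.00515) and -0.12 against NC (edgeR, adjusted p = 0.763). AVL9, at 196.1 kb, was 0.14 against WT and 0.23 against NC. SLC25A5P5, a pseudogene whose reads can come from its parent gene, was called lower in NC than in WT (-1.43, edgeR, adjusted p = 0.0169). DPY19L1P1, ZNRF2P1 and LINC00997 were called in 0 comparisons, with log2 fold changes of -0.43 to 1.17. SNX2P2, the only gene annotated inside PDE1C, had too few counts.

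Over the 9 libraries, the tested genes whose log2 level was most like that of PDE1C by Pearson correlation were KLHL7 (r = 0.982), SLC34A2 (0.981), ADAMTS16 (0.978), MUC16 (0.978), SOX5 (0.976), FOXO1 (0.973), BTBD10 (0.972) and TTC28-AS1 (0.971). These are descriptions across libraries that share 3 groups. ADAMTS16 and SOX5, like PDE1C, were among the genes the study selected as higher in ESX1 cells on these libraries. Their likeness to PDE1C is therefore not independent evidence. The genes differed in size of change, from 0.33 on the log2 scale against NC for KLHL7 to 2.65 for ADAMTS16, against 1.83 for PDE1C. Among the members, PDE4D (r = 0.809) and PDE8A (0.750) were nearest to PDE1C over the same 9 libraries, followed by PDE4C (0.584) and PDE4A (0.184), and PDE7A (-0.573), PDE3B (-0.580) and PDE4B (-0.680) ran the other way.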

How the data were processed

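TCam-2 total RNA was depleted of ribosomal RNA, made into stranded libraries and sequenced as read pairs, per the labels. The authors aligned reads to GRCh38 with HISAT2 2.0.5 and deposited counts per gene from featureCounts (1.6.5 in the submitters' processing notes, 1.5.2 in the header), on GENCODE 26 and without strand, unnormalized. The authors also deposited log2 values made with DESeq2, with a floor of 4.18 for genes at 0. The transformation is not given in the sources used here. Both tables hold 63856 genes, whose zeros and floor values matched in every gene, and carry no pooled columns.

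For the comparisons, edgeR 4.0.16 under R 4.3.3 was run on the counts (filterByExpr, which left 18452 genes, TMM, glmQLFit over all 9 samples, glmQLFTest), with Benjamini-Hochberg adjustment over all tested genes. Genes were called at an adjusted p below 0.05 and at least 2-fold. The SE is the log2 fold change divided by the square root of F. The fit was tested on simulated data. Alternatives were DESeq2 1.42.0, other size factors and filters, limma 3.58.1 on the log2 values, a replicate block, no mitochondrial genes, and each library left out. The members and lists were chosen with earlier results of these data known. Named genes were the members, ESX1, all other phosphodiesterases, listed genes called in any comparison or with the smallest adjusted p in a list without calls, the 8 genes most correlated with PDE1C and tested genes within 500 kb of it. The values of 1 listed gene are not reported here. Promoter windows came from RefSeq, GRCh38.p14. Total counts per library were 5212804 to 10644408, and levels under 3 counts, 0.302 to 0.554 normalized CPM, are not resolved.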

Additional observations from a re-analysis of the deposited data

How the results depend on the processing

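The directions of PDE1C held in all alternatives run. On the authors' log2 values (limma) its log2 fold change was 0.975 against NC and 1.211 against WT, in place of 1.83 and 2.33. With each library left out in turn it ranged from 1.753 to 1.911 against NC, from 2.05 to 2.87 against WT and from 0.222 to 1.043 between NC and WT, the highest 2 values without WT replicate 1. PDE1C had no value where 10 counts were asked of every sample. The number of genes called was 328 against NC, 2131 against WT and 973 between NC and WT. It was 200, 1192 and 563 with at least 10 counts in every sample, 158, 935 and 332 with limma on the authors' log2 values and 784, 5306 and 3158 with no minimum fold. Leaving out each library gave 209 (without NC replicate 3) to 434 against NC. Listed cyclic nucleotide genes called numbered 5, 28 and 20 with no minimum fold, and 9 against WT and 4 between NC and WT with limma. Upper-quartile scaling moved the median of all genes to 0.11 against WT and 0.10 between NC and WT, and PDE8A then stood at 0.45 against WT. The replicate numbers were not found to pair the samples, since the correlations of same-numbered libraries ranged from -0.03 to 0.193. With the replicate block, PDE1C was 1.831 against NC, 2.348 against WT and 0.517 between NC and WT, and 358, 2109 and 1003 genes were called. Low counts limit PDE1C, PDE3A, PDE4A, PDE4C and PDE10A most, and the shallowest library, ESX1 replicate 3, limits PDE4B.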
